A study of Mus musculus with 8 samples.

Results

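The 41 genes described here encode enzymes and regulators that build, activate, oxidise and store fatty acids, out of 56832 genes in the table of RNA-seq values. They were taken by name and fall into 12 groups by role, namely transcriptional control, synthesis, elongation and desaturation, activation, the carnitine shuttle, the core and the auxiliary steps of beta-oxidation, electron transfer, peroxisomal oxidation, acyl-CoA hydrolysis, storage with lipolysis, and phospholipid remodelling. The RNA came from microglia sorted from the brains of young adult male 5xFAD mice, with 4 libraries per treatment. In the ethanol group, 20% ethanol was given at 3 g/kg by intraperitoneal injection on 5 days a week for 4 weeks, and in the saline group saline was given on the same schedule. Both groups then had 2 weeks without injections. Both groups also carried the 5xFAD transgenes, which make mutant human amyloid precursor protein and presenilin from the neuronal Thy1 promoter, so these libraries compare ethanol with saline only in mice that form amyloid plaques. Not given in the sources used here were the age in days, the strain background and whether each library came from its own mouse, so p-values measure the spread between libraries, part of which may be technical.

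Cells make fatty acids in the cytosol from citrate-derived acetyl-CoA. ATP citrate lyase, acetyl-CoA carboxylase and fatty acid synthase act in turn, and elongases and desaturases then set chain length and double bonds. To be burned, a fatty acid is joined to coenzyme A, carried into mitochondria as acylcarnitine and shortened by repeated rounds of dehydrogenation, hydration, dehydrogenation and thiolysis, with electrons passed to the respiratory chain by the electron transfer flavoproteins. Surplus acyl chains are stored as triglyceride in lipid droplets, which form in microglia under inflammation, with age and near amyloid plaques.

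Assigned reads numbered 14271351 to 17231301 in the 8 libraries, of which the 41 genes took 0.223 to 0.244% of the normalized counts, that is, of the read counts scaled by a size factor per library. All 10 microglial markers checked, among them P2ry12 and Tmem119, averaged 10 normalized counts or more. Together they made up 5.02 to 5.23% of normalized counts in ethanol and 4.77 to 5.05% in saline libraries. Border macrophage markers made up 0.00516 to 0.00792% of normalized counts in ethanol and 0.00323 to 0.0157% in saline libraries. Astrocyte markers, of which 8 of 8 were measurable, made up 0.05 to 0.0702% of normalized counts in ethanol and 0.0567 to 0.0657% in saline libraries. Oligodendrocyte markers made up 0.00995 to 0.0125% of normalized counts in ethanol and 0.00987 to 0.0122% in saline libraries, and neutrophil markers 0.0162 to 0.0622% of normalized counts in ethanol and 0.0155 to 0.0929% in saline libraries. The adipocyte genes Adipoq, Plin1, Cidec and Lep had no read in any library. The part of other cells in the values below was not tested. The first principal component of all tested genes, with 20.1% of the variance, placed samples 1 and 2 of both groups between -31.4 and -13.9 and samples 3 and 4 between 4.58 and 60.7, with ethanol 4 farthest out. Values within samples 1 and 2 and within samples 3 and 4 are therefore given for the genes with the smallest p.

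Ethanol and saline microglia gave no called difference in any gene of fatty acid metabolism. With a mean of 10 or more normalized counts as the filter, limma tested 40 of the 41 genes, and 0 of them had a Benjamini-Hochberg adjusted p under 0.05, as did 0% of all 14428 genes tested. Adjusted p was 0.997 in 39 of the 40 and 0.999 for Acsl3. The log2 fold change, on the log2(value + 1) scale, was positive for 22 genes and negative for 18, with a median of 0.015, beside a median of -0.0054 over all genes tested. An unadjusted p under 0.05 was found for 2 genes, Acot9 and Acads, or 5% of the 40, beside 3.63% of all genes tested. The 4 ethanol and 4 saline values did not overlap for 1 gene, Acot9, or 2.5%, beside 2.32% of all genes tested. By edgeR and DESeq2 on the recovered reads, 0 of these genes were called. An unadjusted p under 0.05 was found for 1 of them in edgeR, beside 3.43% of all genes, and for 2 in DESeq2, beside 2.90%.

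For 29 of the 40 tested genes the 95% interval lay inside 1.5-fold, both upward and downward, beside 56.3% of all genes tested. These were all 16 genes that averaged 1000 normalized counts or more and 13 of the 18 with a mean of 100 to 1000. None of the 6 tested genes with a mean under 100 (Acaca, Elovl6, Scd1, Acot7, Etfb and Dgat2) had an interval that narrow, so a change of that size still lies within their intervals. In bulk RNA, fewer cells of a type and less RNA per cell cannot be told apart.

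**Figure D1:**
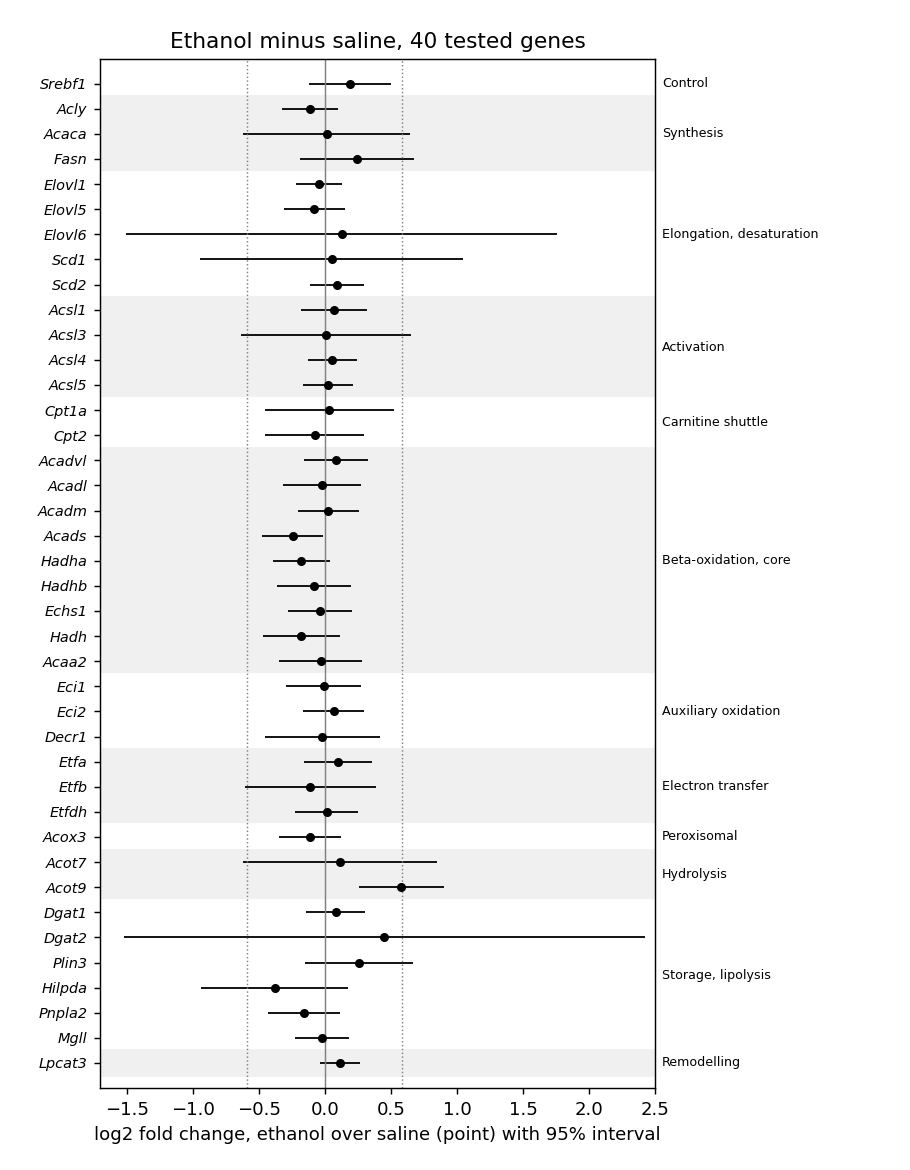
log2 fold change of ethanol over saline on the log2(value + 1) scale for the 40 tested genes, grouped by role. Points are limma estimates, bars 95% intervals, and dotted lines mark a 1.5-fold change. Acot9 lies farthest to the right among the genes with narrow intervals, Dgat2 and Elovl6 have the widest bars, and 29 bars stay within the dotted lines.

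Levels per length differed among these genes widely, compared per kilobase (kb) of the longest protein-coding transcript. Lpcat3, which reacylates lysophospholipids with polyunsaturated chains, was the highest over all 8 libraries, at 1312 ± 42.2 in ethanol and 1211 ± 54.4 in saline libraries (normalized counts per kb, SD, n = 4 each). Elovl1, the elongase of saturated very-long-chain fatty acids, was next at 1194 ± 105 in ethanol and 1226 ± 35.7 in saline libraries. In the saline libraries alone Elovl1 was above Lpcat3, and the spreads of these 2 genes overlapped in both groups. Next came the beta-oxidation hydratase gene Echs1, at 852 ± 77.4 in ethanol and 879 ± 137 in saline libraries, and Acly, which encodes ATP citrate lyase, at 758 ± 56.6 in ethanol and 826 ± 139 in saline libraries. Their spreads also overlapped each other. The later enzymes of synthesis were far lower per kb. Fasn, fatty acid synthase, had 27.1 ± 5.14 in ethanol and 23.2 ± 5.90 in saline libraries, and Acaca, the cytosolic acetyl-CoA carboxylase, had 8.66 ± 2.33 in ethanol and 8.69 ± 2.52 in saline libraries. Dgat2 was near Acaca, at 7.02 ± 3.11 in ethanol and 9.01 ± 7.198 in saline libraries, and Elovl6 lower, at 2.92 ± 2.62 in ethanol and 1.82 ± 0.598 in saline libraries.

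**Figure D2:**
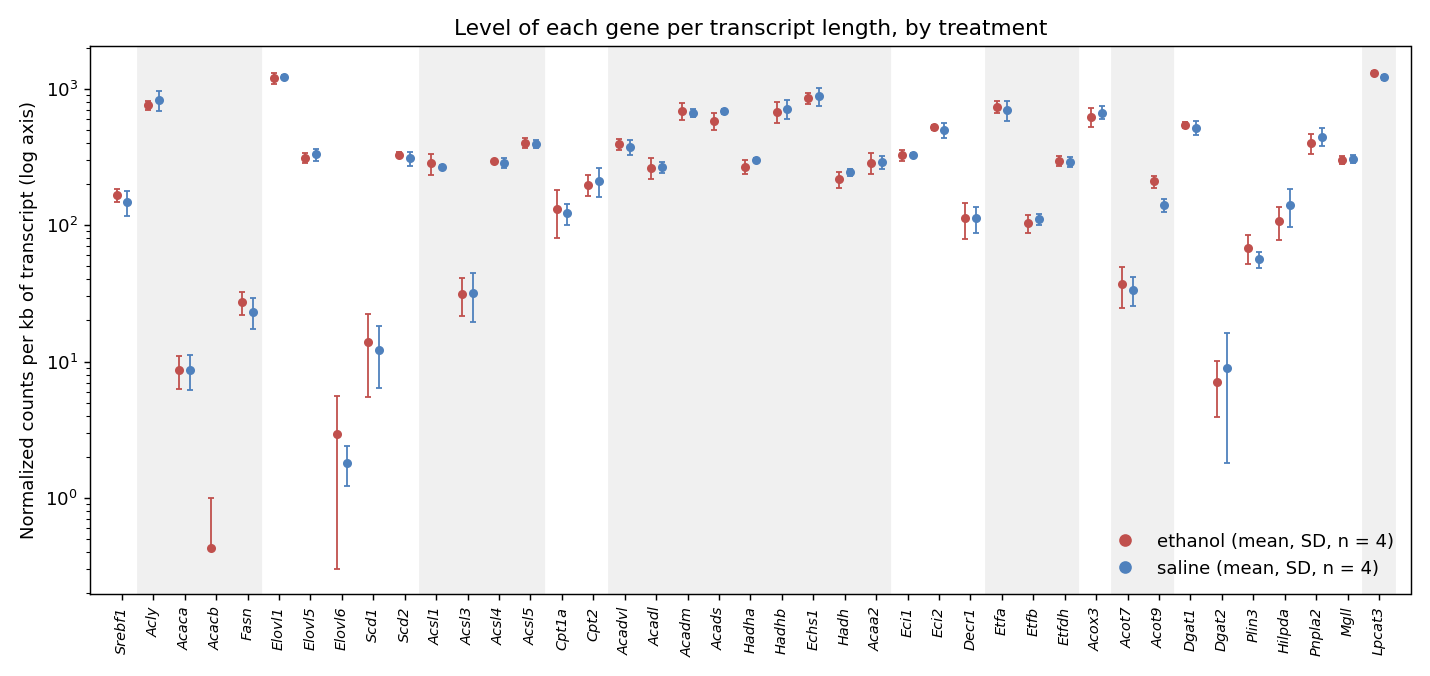
Normalized counts per kb of transcript (log axis) for the 41 genes in order of role, with red points for ethanol and blue for saline libraries (mean and SD, n = 4 each) and shading to separate roles. Acacb has no saline point because all 4 saline values were 0, and its lower bar is left out because the SD exceeded the mean. Most genes lie between 100 and 1000 per kb, with Lpcat3 and Elovl1 above, and with 9 below, namely Acaca, Acacb, Fasn, Elovl6, Scd1, Acsl3, Acot7, Dgat2 and Plin3.

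Srebf1 encodes SREBP1, the transcription factor that switches on lipogenic genes. It had 739.8, 738, 597 and 787 normalized counts in ethanol 1 to 4 and 548, 521, 643 and 822 in saline 1 to 4. The groups overlapped, and saline 4 was the highest library of all 8 while saline 2 was the lowest. The comparison gave a fold of 1.14 (95% interval 0.922 to 1.41) with a limma p of 0.209. Its log2 difference was 0.47 between samples 1 and 2 of the treatments and -0.085 between samples 3 and 4, so the sign was not the same in both sets. The part of the overlapping gene Rai1, which shares 109 exonic bases on the opposite strand, was not tested.

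Among the synthesis genes, Acly had 3314, 3286, 3116 and 3708 normalized counts in ethanol 1 to 4 and 3210.4, 4563, 3347 and 3511 in saline 1 to 4. Saline 2 stood above the other 7 libraries, which lay close together, and the fold was 0.925 (0.798 to 1.07). Fasn had 228, 325, 229 and 309.7 normalized counts in ethanol 1 to 4 and 299.6, 197, 171 and 264 in saline 1 to 4. The groups overlapped, with the 2 lowest values in saline, at a fold of 1.18 (0.878 to 1.59). Acaca averaged 82.4 ± 22.2 in ethanol and 82.7 ± 23.99 in saline libraries (SD, n = 4 each), a fold of 1.01 (0.652 to 1.56). Acacb, the carboxylase isoform at the mitochondrial surface, fell below the filter. It had 0, 11, 1 and 3 reads in ethanol 1 to 4 and 0 in each saline library, where a count of 0 allows up to 3 reads per library. Most of its reads came from ethanol 2, and no fold is given.

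Of the elongases and desaturases, none of 5 passed the test, with 3 positive and 2 negative fold changes. Elovl1 had 2067, 2312, 1939 and 2328 normalized counts in ethanol 1 to 4 and 2149.8, 2288, 2260.1 and 2183 in saline 1 to 4. The 2 lowest and the 2 highest libraries were both ethanol, with all saline values between, and the fold was 0.971 (0.860 to 1.10). Of the delta-9 desaturase genes Scd2 and Scd1, the higher was Scd2, the form prevalent in mouse brain, at 329 ± 15.05 in ethanol and 309.6 ± 37.2 in saline libraries (normalized counts per kb), against 13.9 ± 8.40 in ethanol and 12.2 ± 5.84 in saline libraries for Scd1. Scd2 had 1877, 1845, 1699 and 1753 normalized counts in ethanol 1 to 4 and 1674, 1708, 1438 and 1935 in saline 1 to 4. Saline 3 was its lowest library and saline 4 its highest, so the ethanol values lay inside the saline range, at a fold of 1.07 (0.928 to 1.23). Scd1, the form known from liver and fat, had 79.3, 21.1, 51.1 and 116 normalized counts in ethanol 1 to 4 and 67.5, 36.7, 36.7 and 95.4 in saline 1 to 4. It ran from its lowest to its highest value within the ethanol group alone, from ethanol 2 to ethanol 4, at a fold of 1.04 (0.521 to 2.06) and a coefficient of variation over the 8 libraries of 51.8%. That was above 93.4% of the 500 tested genes nearest in mean. Scd3 had at most 14.4 normalized counts, in ethanol 4, and Scd4 had no read, and the counting of reads common to these near-identical copies is not given in the sources used here.

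Elovl5, which lengthens polyunsaturated chains, averaged 868 ± 72.8 in ethanol and 919 ± 93.6 in saline libraries (SD, n = 4 each), a fold of 0.946 (0.806 to 1.11). Elovl6, which lengthens palmitate, was near the filter at 2.17, 36.1, 24.1 and 7.203 normalized counts in ethanol 1 to 4 and 12.02, 7.72, 15.3 and 8.18 in saline 1 to 4.

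All 4 acyl-CoA synthetase genes, whose products activate fatty acids for either fate, had small positive fold changes in limma and none passed, with Acsl3 negative in edgeR and DESeq2. Acsl5, the highest of them per kb, had 1738, 1652, 1534 and 1871 normalized counts in ethanol 1 to 4 and 1681, 1808, 1565 and 1632 in saline 1 to 4. Its fold was 1.02 (0.890 to 1.16), and its exons share 404 bases with Zdhhc6 on the opposite strand. The folds were 1.05 (0.884 to 1.25) for Acsl1 and 1.04 (0.914 to 1.18) for Acsl4, the isoform that prefers arachidonate. In ethanol, Acsl4 varied little, with an SD of 16.2 around a mean of 1572, against 129 around 1516 in saline. Acsl3, a synthetase of the endoplasmic reticulum and lipid droplets, had 122, 90.2, 104 and 176 normalized counts in ethanol 1 to 4 and 165, 105, 67.3 and 169 in saline 1 to 4. It varied widely in both groups, and its fold was 1.01 (0.645 to 1.57).

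Cpt1a, carnitine palmitoyltransferase of the outer mitochondrial membrane and the entry point of long chains, had 772, 472, 725 and 306 normalized counts in ethanol 1 to 4 and 661, 468, 464 and 512 in saline 1 to 4. Ethanol 1 and 3 were the highest libraries and ethanol 4 the lowest, with the saline values between them. The fold was 1.02 (0.731 to 1.44), and the coefficient of variation of 28.8% was above 99.4% of the 500 tested genes nearest in mean. Cpt2, its partner of the inner membrane, had 473, 402, 586 and 423 normalized counts in ethanol 1 to 4 and 342, 489, 554 and 624 in saline 1 to 4. All ethanol values lay inside the saline range, at a fold of 0.950 (0.733 to 1.23).

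The 9 core enzymes of mitochondrial beta-oxidation gave 7 negative and 2 positive fold changes, with a median log2 fold change of -0.037, and 0 passed the test. With the library-name number as a covariate, Echs1 and Acaa2 turned positive. Acads, the dehydrogenase of short-chain acyl-CoA, had the smallest p of the 9. It had 1008, 1203, 901 and 1234 normalized counts in ethanol 1 to 4 and 1292, 1200.5, 1303 and 1314 in saline 1 to 4. Ethanol 1 and 3 lay below every saline library, while ethanol 2 and 4 lay inside the saline range. The fold was 0.844 (0.719 to 0.991), with a limma p of 0.0393 that did not survive adjustment. Its log2 difference was -0.18 between samples 1 and 2 of the treatments and -0.31 between samples 3 and 4, and leaving out single libraries gave log2 fold changes of -0.31 to -0.16 with limma p of 0.0148 to 0.142, the highest without ethanol 3.

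Hadha and Hadhb encode the alpha and beta subunits of the trifunctional protein, which performs the last steps on long chains. Their start sites lie 273 bases apart on opposite strands of mouse chromosome 5, so that the stretch between them precedes both genes. The window from 250 bases before to 50 bases after the Hadha start, at chr5:30154931-30155230 on the minus strand (RefSeq, GRCm38.p6), overlaps that of Hadhb over 228 bases. It ends 23 bases short of the Hadhb start site and is printed because most of it lies between the 2 start sites, with the GC box GGGCGG, searched on both strands, in capitals.
Hadha: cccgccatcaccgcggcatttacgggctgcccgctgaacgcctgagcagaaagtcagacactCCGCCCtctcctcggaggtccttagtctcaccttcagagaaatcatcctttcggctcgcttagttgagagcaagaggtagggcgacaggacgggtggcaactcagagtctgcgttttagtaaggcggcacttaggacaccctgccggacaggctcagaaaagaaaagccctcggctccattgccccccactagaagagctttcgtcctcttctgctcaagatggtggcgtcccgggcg
Hadha had 932, 1232, 1102 and 1048 normalized counts in ethanol 1 to 4 and 1184, 1259, 1229 and 1182 in saline 1 to 4, with ethanol 1, 3 and 4 below all saline libraries. The fold was 0.885 (0.763 to 1.03), at a limma p of 0.0977. Its log2 difference was -0.19 between samples 1 and 2 of the treatments and -0.17 between samples 3 and 4. Hadhb had 1505, 1142, 1232 and 1666 normalized counts in ethanol 1 to 4 and 1391, 1168, 1635 and 1655 in saline 1 to 4, at a fold of 0.947 (0.779 to 1.15). Across the 8 libraries the levels of these subunits had a negative correlation that did not pass (Pearson r = -0.36, Spearman rho = -0.60, exact permutation p = 0.393 and 0.132, with adjusted p of 0.948 and 0.867 over 780 pairs). Without the 2 libraries farthest from the median of Hadha, r was -0.063.

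Hadh, the short-chain hydroxyacyl-CoA dehydrogenase, had 418, 312, 403 and 419 normalized counts in ethanol 1 to 4 and 419, 442, 466 and 417 in saline 1 to 4. Ethanol 2 stood below the other 7 libraries, and the fold was 0.885 (0.723 to 1.08) with a limma p of 0.218. Its log2 difference was -0.25 between samples 1 and 2 of the treatments and -0.10 between samples 3 and 4. Echs1, the enoyl-CoA hydratase of short chains, had 1171, 1405, 1296 and 1437 normalized counts in ethanol 1 to 4 and 1178, 1226, 1428 and 1645 in saline 1 to 4, which overlapped over most of their range at a fold of 0.975 (0.825 to 1.15). The remaining dehydrogenases had folds of 1.06 (0.896 to 1.26) for Acadvl, 0.985 (0.801 to 1.21) for Acadl and 1.02 (0.870 to 1.19) for Acadm, which act on very-long, long and medium chains. Acadvl shares 1151 exonic bases with Dvl2 on the opposite strand, and its value is uncertain for that reason. Acaa2, the thiolase, had a fold of 0.979 (0.788 to 1.22).

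Eci1, Eci2 and Decr1 handle the double bonds of unsaturated chains. Eci2, an enoyl-CoA isomerase of mitochondria and peroxisomes, had 923, 900.3, 867 and 951 normalized counts in ethanol 1 to 4 and 831, 758, 884 and 1023 in saline 1 to 4. Saline 2 was lowest and saline 4 highest, with all ethanol values between them, at a fold of 1.05 (0.892 to 1.23). Eci1 averaged 370.3 ± 36.7 in ethanol and 371 ± 11.3 in saline libraries, and Decr1, the dienoyl-CoA reductase, 332 ± 98.9 in ethanol and 333 ± 72.8 in saline libraries (normalized counts, SD, n = 4 each), with folds of 0.995 (0.817 to 1.21) and 0.986 (0.729 to 1.33).

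Of the electron transfer flavoproteins, which hand electrons from the dehydrogenases to ubiquinone, Etfa had 934, 967, 1042 and 1183 normalized counts in ethanol 1 to 4 and 834, 868, 986 and 1181 in saline 1 to 4. In both groups samples 3 and 4 lay above samples 1 and 2, and ethanol and saline overlapped at a fold of 1.07 (0.897 to 1.28). Etfdh, the ubiquinone oxidoreductase, separated samples 3 and 4 from samples 1 and 2 in the same direction and had a fold of 1.01 (0.858 to 1.19). Such a separation, in either direction, was seen for 4 of the 40 tested genes, Etfa, Etfdh, Elovl5 and Dgat1, or 10%, beside 8.03% of all genes tested. Etfb averaged 91.9 ± 13.7 in ethanol and 98.8 ± 9.06 in saline libraries (SD, n = 4 each), a fold of 0.926 (0.657 to 1.31). Its longest transcript has 893 bases, and it shares 617 exonic bases with Gm45233 on the same strand. The value of Etfb is uncertain for that reason. Acox3, a peroxisomal oxidase of branched-chain acyl-CoA, had 2042, 2675, 2272 and 2908 normalized counts in ethanol 1 to 4 and 2804, 2918, 2254 and 2682 in saline 1 to 4. Ethanol 1 was lowest and saline 2 highest in it, at a fold of 0.924 (0.786 to 1.09).

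**Figure D3:**
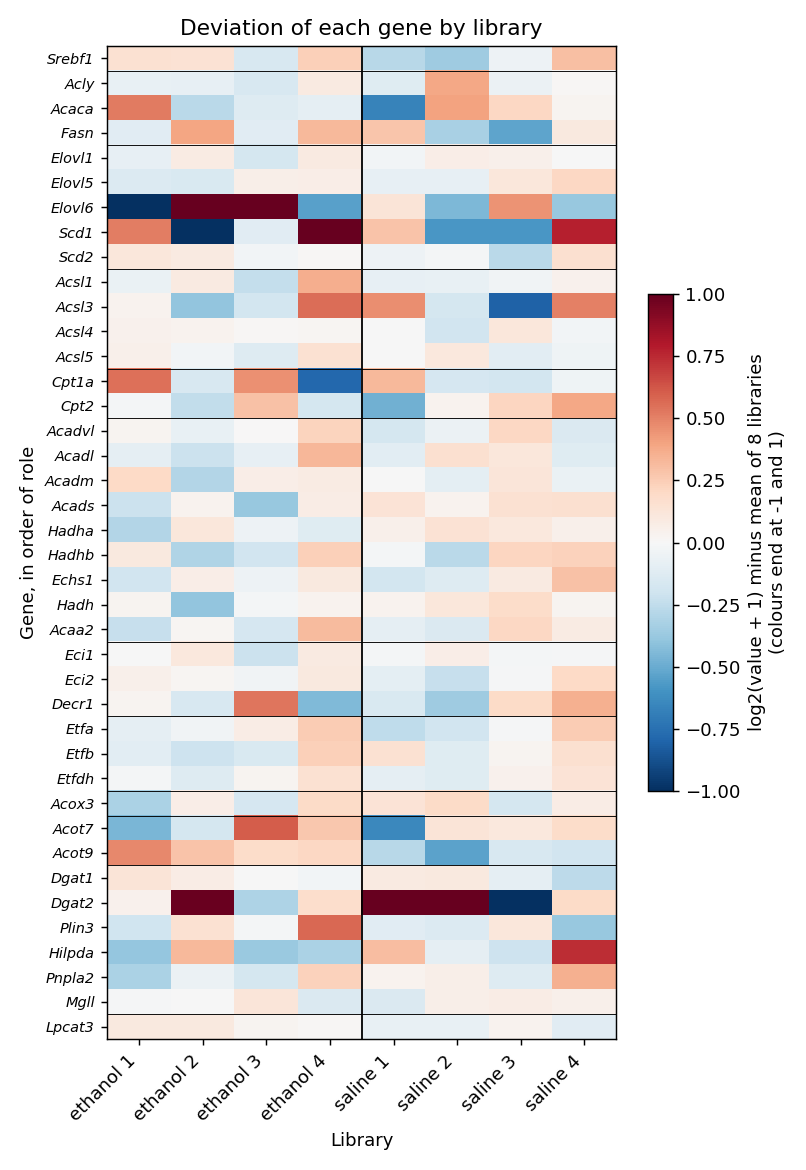
Deviation of log2(value + 1) from the mean of the 8 libraries for each tested gene (rows, in order of role), with ethanol 1 to 4 left of the black line and saline 1 to 4 right of it. Red is above and blue below the mean. The strongest colours belong to Elovl6, Dgat2 and Scd1, whose means are under 100 normalized counts, and Acot9 is above its mean in every ethanol library and below it in every saline library.

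Acot9, a mitochondrial acyl-CoA thioesterase that frees fatty acids from coenzyme A, was the gene with the smallest p of the 40. It had 418, 364, 339 and 346 normalized counts in ethanol 1 to 4 and 247, 207, 268 and 262 in saline 1 to 4. Every ethanol library lay above every saline library, with ethanol 3 at 339 nearest to saline 3 at 268. This was a fold of 1.49 (95% interval 1.19 to 1.86) with a limma p of 0.0015 and an adjusted p of 0.997, so it was not called. Its log2 difference was 0.79 between samples 1 and 2 of the treatments and 0.37 between samples 3 and 4. Over 18 alternative fits its log2 fold change ran from 0.50 to 0.62 and its adjusted p from 0.522 to 1.00. The retrogene copy Acot10 had no read in any library, and the counting of reads common to both is not given in the sources used here. Acot7, a cytosolic thioesterase, averaged 55.5 ± 18.3 in ethanol and 50.4 ± 12.1 in saline libraries (SD, n = 4 each), a fold of 1.08 (0.652 to 1.80).

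The Acot9 promoter window is shown because it belongs to the gene whose groups did not overlap. It lies at chrX:155262193-155262492 on the plus strand (RefSeq, GRCm38.p6), and capitals mark the CCAAT box and the GC box GGGCGG on either strand.
Acot9: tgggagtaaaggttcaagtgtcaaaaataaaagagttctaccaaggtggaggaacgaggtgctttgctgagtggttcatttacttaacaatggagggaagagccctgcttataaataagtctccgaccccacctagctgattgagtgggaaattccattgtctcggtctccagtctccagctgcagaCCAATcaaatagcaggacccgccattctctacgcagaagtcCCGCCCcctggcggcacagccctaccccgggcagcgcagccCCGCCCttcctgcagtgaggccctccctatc
It held 1 CCAAT box starting 63 bases before the start site, and GC boxes starting 22 bases before and 20 bases after it, each counted to its first letter.

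**Figure D4:**
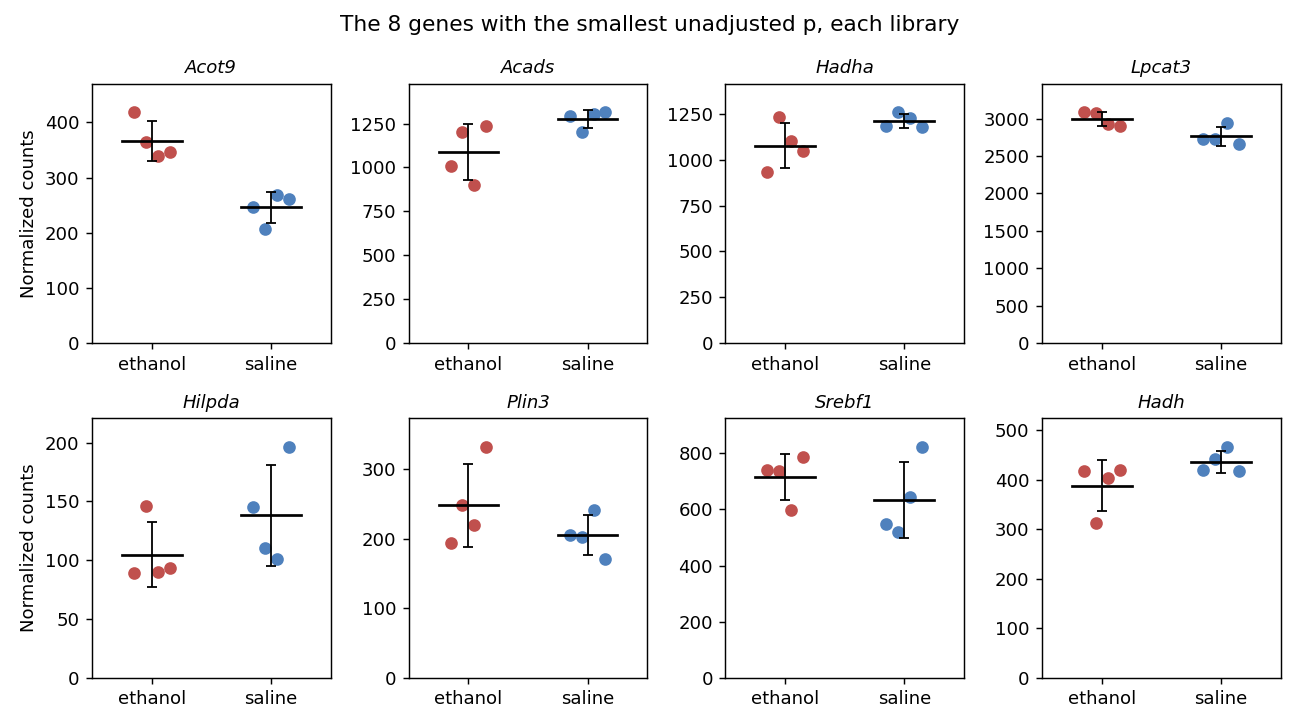
Normalized counts in each library for the 8 genes with the smallest unadjusted p, ethanol (red) left of saline (blue), with the mean (wide bar) and SD (n = 4 each). The ethanol and saline points are apart for Acot9 and overlap for the other 7 genes.

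Storage and lipolysis genes split evenly, with 3 positive and 3 negative fold changes of 6 and 0 passing. Dgat1, which makes triglyceride from diglyceride, had 1092, 1049, 996 and 978 normalized counts in ethanol 1 to 4 and 1061, 1070.2, 937 and 834 in saline 1 to 4, at a fold of 1.06 (0.907 to 1.24). Samples 1 and 2 lay above samples 3 and 4 in it. Dgat2, the other diglyceride acyltransferase, had 13.04, 26.1, 10.03 and 14.4 normalized counts in ethanol 1 to 4 and 34.2, 32.8, 0 and 14.5 in saline 1 to 4. Its fold on the log2(value + 1) scale was 1.37 (0.348 to 5.37) although its mean was lower in ethanol, and saline 3 had no read. In edgeR and DESeq2 the log2 fold change was -0.35 and -0.36. The log2 difference was -0.82 between samples 1 and 2 of the treatments and 1.73 between samples 3 and 4. Per kb, Dgat1 had 545 ± 27.5 in ethanol and 517 ± 59.4 in saline libraries, against 7.02 ± 3.11 in ethanol and 9.01 ± 7.198 in saline libraries for Dgat2.

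Pnpla2, the triglyceride lipase ATGL that opens lipid droplets, had 885, 1059, 977 and 1289 normalized counts in ethanol 1 to 4 and 1127, 1146, 1004 and 1411 in saline 1 to 4. Saline 4 was highest and ethanol 1 lowest, and the fold was 0.896 (0.743 to 1.08). Hilpda, a hypoxia-inducible inhibitor of that lipase, had 89.1, 146, 90.3 and 93.6 normalized counts in ethanol 1 to 4 and 145, 110, 101 and 196 in saline 1 to 4. In ethanol 3 of 4 libraries lay between 89.1 and 93.6 and ethanol 2 above them, while saline 4 was the highest of all. The fold was 0.770 (0.524 to 1.13), at a limma p of 0.17, and the log2 difference was -0.14 between samples 1 and 2 of the treatments and -0.61 between samples 3 and 4. Plin3, a coat protein of lipid droplets, had 193, 248, 219.6 and 331 normalized counts in ethanol 1 to 4 and 205, 202, 241 and 171 in saline 1 to 4. Ethanol 4 was the highest library and saline 4 the lowest, at a fold of 1.20 (0.899 to 1.59) and a limma p of 0.203, with a log2 difference of 0.10 between samples 1 and 2 of the treatments and 0.41 between samples 3 and 4. Mgll, the monoglyceride lipase, averaged 1199.9 ± 88.2 in ethanol and 1216 ± 82.8 in saline libraries (SD, n = 4 each), a fold of 0.987 (0.857 to 1.14).

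Lpcat3 had 3082, 3069.8, 2923 and 2898 normalized counts in ethanol 1 to 4 and 2726, 2723, 2941 and 2655 in saline 1 to 4. Only saline 3 reached into the ethanol range, from above its 2 lowest libraries, and the fold was 1.08 (0.976 to 1.21) at a limma p of 0.124. Its log2 difference was 0.17 between samples 1 and 2 of the treatments and 0.059 between samples 3 and 4. It shares 334 exonic bases with Emg1 on the opposite strand, and the library chemistry does not mark strand. Exonic bases are also shared by Echs1 with Paox (142), Etfdh with 4930579G24Rik (278), Etfb with Gm45233 (617) and Acsl3 with Utp14b (244), the last 2 on the same strand. Further overlaps on the opposite strand include Acsl1 with Gm45244 (1039), Acox3 with 4931431C16Rik (700) and Eci2 with Gm16984 (189). These partner genes averaged 2.18, 3.13 and 15.8 normalized counts. Reads from such stretches can belong to either gene, and their part in the values was not tested.

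Co-variation across the 8 libraries was examined for all 780 pairs of the 40 tested genes. Of these, 42 pairs, or 5.38%, had an exact permutation p under 0.05 and 1 pair passed after adjustment over the 780. The share of all pairs of tested genes at that p is not given here. At an r of at least 0.9 there were 2 pairs, or 0.256%, beside 0.165% of all 104076378 pairs of tested genes. At an r of at least 0.8 there were 10, or 1.28%, beside 1.10% of all pairs. At an r of -0.8 or below there were 8, or 1.03%, beside 0.976%. These counts run over all pairs, those of the 4 genes that separate samples 1 and 2 from samples 3 and 4 included. Pairs share libraries and genes, so they are not independent of each other. Within the core of beta-oxidation the median r over 36 pairs was 0.355, with a range of -0.685 to 0.720. Over all 780 pairs the median r was 0.075. The medians of the other roles that hold pairs ran from -0.262 for synthesis to 0.666 for electron transfer, with 3 pairs each. The median over all pairs of tested genes is not given here.

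The pair that passed was Srebf1 with Eci2, whose values put the 8 libraries in the same order, from saline 2 at the low end to saline 4 at the high end. Pearson r was 0.94 (exact permutation p = 2.48e-05, the smallest that the pairings allow, adjusted p = 0.0193) and Spearman rho was 1.00 (exact permutation p = 4.96e-05, adjusted p = 0.0387). Without the 2 libraries farthest from the median of Srebf1, r was 0.88. On deviations from the treatment means r was 0.94, and on deviations from the means of samples 1 and 2 and of samples 3 and 4 it was 0.95, with an adjusted p of 0.138 that no longer passed. Sets of 4 libraries are too small for a value of their own.

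Promoter windows of this pair are shown because it is the 1 pair that passed. For Srebf1, which has 3 windows, the one with both a CCAAT box and GC boxes is given, at chr11:60210422-60210721 on the minus strand. The Eci2 window lies at chr13:34994095-34994394 on the minus strand. Both are from RefSeq, GRCm38.p6, with the CCAAT box and the GC box GGGCGG on either strand in capitals.
Srebf1: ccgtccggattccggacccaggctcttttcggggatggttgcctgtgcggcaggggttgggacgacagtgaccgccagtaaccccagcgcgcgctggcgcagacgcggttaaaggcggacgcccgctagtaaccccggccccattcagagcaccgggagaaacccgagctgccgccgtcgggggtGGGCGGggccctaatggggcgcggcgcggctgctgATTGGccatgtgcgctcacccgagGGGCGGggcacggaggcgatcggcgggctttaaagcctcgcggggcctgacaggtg
Eci2: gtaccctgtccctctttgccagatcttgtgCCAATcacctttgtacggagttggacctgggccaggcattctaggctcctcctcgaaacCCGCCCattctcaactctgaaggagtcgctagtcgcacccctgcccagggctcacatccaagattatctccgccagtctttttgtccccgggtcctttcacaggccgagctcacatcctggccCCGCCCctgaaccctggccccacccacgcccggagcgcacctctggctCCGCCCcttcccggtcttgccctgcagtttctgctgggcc
Neither window held the sterol regulatory element core TCACNCCAC or the E-box CACGTG.

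RefSeq windows were found for 35 of the 41 genes, 41 windows in all. On both strands, the CCAAT box was in 46.3% of these windows, beside 37.8% of the 12667 windows of tested genes, and the GC box was in 73.2%, beside 60.7%. The E-box CACGTG was in 4.88%, in windows of Elovl5 and Mgll, beside 9.89%. The core TCACNCCAC was in 1 window, of Acsl1, or 2.44%, beside 1.11%. The full sterol regulatory element and the direct repeat of the PPAR response element were in none of the 41, beside 0.0316% for each. The core motif overlaps the full element by construction, and these matches are letters in a window of 300 bases.

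Srebf1 was set against 7 of its textbook targets. No relation passed, and r ran from -0.25 with Acly to 0.54 with Scd2, and rho from -0.29 with Elovl6 to 0.71 with Scd2. The smallest exact permutation p was 0.167 for r, with an adjusted p of 0.733 over the 7, and 0.0576 for rho, with an adjusted p of 0.337. Without the 2 libraries farthest from the median of Srebf1, r was 0.68 for Scd2, 0.62 for Fasn, 0.48 for Scd1, 0.78 for Acly, 0.037 for Elovl5, 0.028 for Acaca and -0.46 for Elovl6, so the negative sign with Acly rests on those 2 libraries.

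The other pairs given here, from near the ends of the range, did not pass after adjustment, with adjusted p between 0.667 and 0.705. Elovl1 and Eci1 had r = 0.90 and rho = 0.81 (exact permutation p = 0.00320 and 0.0218), and r = 0.85 without the 2 farthest libraries. Acot9 and Lpcat3 had r = 0.84 and rho = 0.83 (exact permutation p = 0.0145 and 0.0154), but r = 0.52 on deviations from the treatment means. Cpt1a ran against Elovl1 (r = -0.85, rho = -0.88, exact permutation p = 0.00820 and 0.00720) and against Acaa2 (r = -0.86, rho = -0.83, exact permutation p = 0.00700 and 0.0154). These were -0.82 and -0.61 without the 2 farthest libraries. Acsl5 ran against Decr1 (r = -0.87, rho = -0.88, exact permutation p = 0.00590 and 0.00720), with r = -0.71 without the 2 farthest. Pairs with Elovl5, Etfa, Etfdh or Dgat1 are left out here, so the pairs given are not the full ends of the range. The values of these genes in samples 1 and 2 do not overlap those in samples 3 and 4. Elovl5 is given only among the targets of Srebf1 above.

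**Figure D5:**
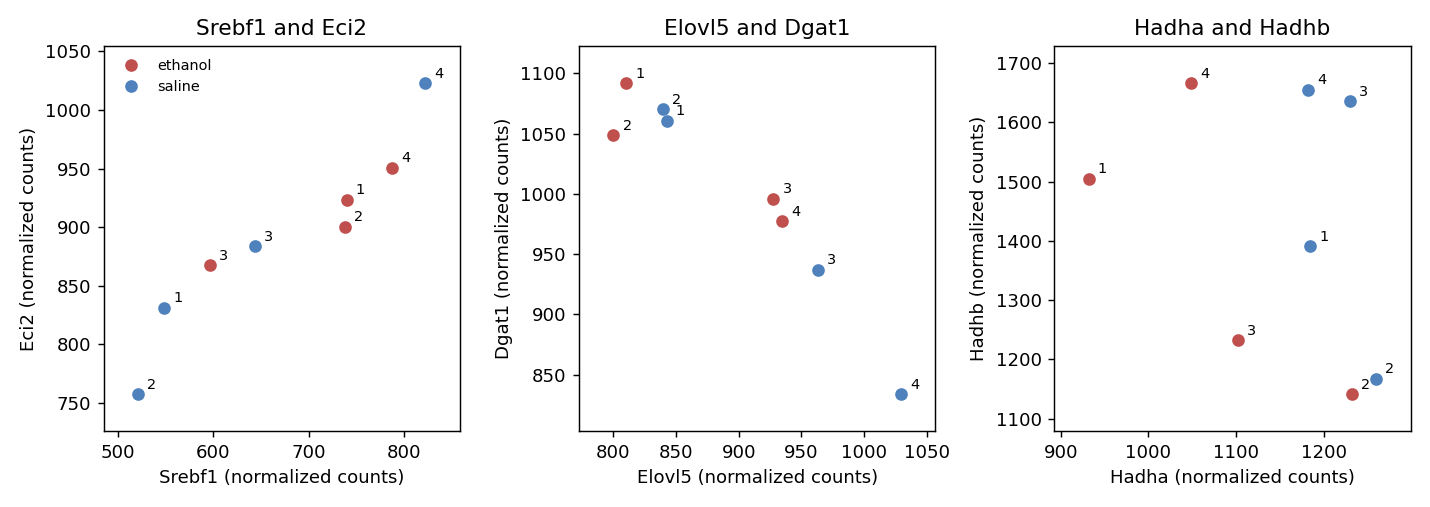
Normalized counts of 3 pairs of genes in each library, ethanol in red and saline in blue, with the sample number beside each point. Srebf1 and Eci2 rank the libraries alike, Elovl5 and Dgat1 split samples 1 and 2 from samples 3 and 4, and Hadha and Hadhb show no shared order.

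Other genes of fatty acid metabolism were not called either. Of 126 further genes listed by role, 94 could be tested, 50 with positive and 44 with negative fold changes and a median log2 fold change of 0.039. In limma 0 passed and 0 had an unadjusted p under 0.05. By DESeq2, which also fits low genes, 3 of 115 had an unadjusted p under 0.05 (Acss1, Pparg and Pdk4). That was 2.61%, beside 2.90% of all genes in DESeq2. By edgeR 0 had an unadjusted p under 0.05, beside 3.43% of all genes. Pparg, a nuclear receptor of fat storage, averaged 17.6 ± 21.7 in ethanol and 0 ± 0 in saline libraries (normalized counts, SD, n = 4 each), with a DESeq2 unadjusted p of 0.0112. Pdk4, a kinase that holds back pyruvate oxidation, averaged 0 ± 0 in ethanol and 6.91 ± 9.85 in saline libraries, with a DESeq2 unadjusted p of 0.0200. Both were below the filter of limma and, like Crot, were picked out after their values were seen. Ppara and Ppargc1a, regulators of oxidation, and Plin1, Plin4 and Plin5, coat proteins of lipid droplets, were also below that filter. Plin2, of the same family, was tested and averaged 684 ± 26.3 in ethanol and 694 ± 110 in saline libraries (normalized counts, SD, n = 4 each). Its fold was 0.994 (0.832 to 1.19). The groups did not overlap for 2 of the 94, Insig2 and Crot, both higher in ethanol. Over all genes tested the share was 2.32% in either direction and 1.12% with ethanol higher. All 5 tested thioesterase genes of this list, Acot2, Acot6, Acot8, Acot11 and Acot13, had positive fold changes, as did Acot7 and Acot9. Over these 5 the median log2 fold change was 0.20, and the unadjusted limma p ran from 0.150 to 0.804. They were picked out by name outside the rules given below. The log2 difference changed sign between samples 1 and 2 and samples 3 and 4 for Acot2 (-0.10 and 0.50), Acot7 (-0.060 and 0.29) and Acot8 (0.45 and -0.31). It was positive in both sets for Acot6, Acot9, Acot11 and Acot13. Of all genes tested, 48.8% had a positive fold change. Acot1, a thioesterase gene below the filter of limma, went the other way. It averaged 5.15 ± 3.42 in ethanol and 10.3 ± 8.43 in saline libraries (normalized counts, SD, n = 4 each).

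The 5 genes of that list with the smallest p were Acss1, Nr1h3, Insig2, Fitm2 and Mboat1, each with a limma adjusted p of 0.997. Acss1, which makes acetyl-CoA from acetate in mitochondria, had 2525, 2861, 3089 and 2679 normalized counts in ethanol 1 to 4 and 2585, 2424, 2206 and 2637 in saline 1 to 4, a fold of 1.13 (0.997 to 1.28). Insig2, which holds the SREBP complex in the endoplasmic reticulum, had 1313, 1210.1, 1252 and 1401 normalized counts in ethanol 1 to 4 and 1202, 1177, 1185 and 1001 in saline 1 to 4, a fold of 1.14 (0.985 to 1.31). Nr1h3, the gene of the sterol receptor LXR alpha, was low, at 8.69, 23.1, 13.04 and 5.14 normalized counts in ethanol 1 to 4 and 31.4, 34.7, 20.4 and 18.2 in saline 1 to 4, a fold of 0.454 (0.199 to 1.03). Fitm2, needed for lipid droplet formation, had a fold of 0.770 (0.571 to 1.04), and Mboat1, a lysophospholipid acyltransferase, of 0.764 (0.553 to 1.05). Crot, the peroxisomal carnitine octanoyltransferase, was picked out after its values were seen and averaged 1758 ± 54.7 in ethanol and 1597 ± 33.4 in saline libraries (SD, n = 4 each), a fold of 1.10 (0.980 to 1.24).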

How the data were processed

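The authors deposited 1 table for the 8 libraries, holding a signal value per gene: DESeq2-normalized counts, in which each library's reads are scaled by its size factor. Per the labels' protocols, 500 pg of RNA was amplified with a SMARTer kit, and 150 pg of cDNA went into NexteraXT libraries, which do not mark strand. The submitters' processing notes list bcl2fastq 2.19.1, STAR 2.7.9a, featureCounts 2.0.1, R 4.2.2, DESeq2 and Salmon 1.5.2 with the mouse build GRCm39. Their roles and the annotation were not given in the sources used here. Columns were matched by library name. Every value was a whole multiple of its column's smallest value within 1e-06, so reads could be recovered.

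Log2(value + 1) was fitted by limma-trend (limma 3.58.1, R 4.3.3) for 14428 genes whose mean reached 10, with Benjamini-Hochberg adjustment at 0.05 across all genes tested, two-sided. Fold changes are on that scale, which can understate changes of low genes and can differ in sign from the change of their means, as for Dgat2. Reads without molecular identifiers are not independent molecules, so intervals cover the spread between libraries only, and the upper limit of 3 reads for a count of 0 covers counting error only. Alternatives, given in the closing section, used edgeR 4.0.16 and DESeq2 1.42.0 on the recovered reads. The fit was tested on simulated data. Correlations used log2 values and exact permutations. Transcript lengths and overlaps came from GENCODE M21 (GRCm38), matched by symbol.

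The genes and lists were chosen with earlier results of these data known. The named genes are the 8 with the smallest p, those whose groups do not overlap, the highest per kb in each role, 8 fixed genes, and the 3 with the largest coefficient of variation above a mean of 50. Of other pathway genes the 5 with the smallest p are named, and of correlations the 5 highest and 5 lowest. From these, pairs with Elovl5, Etfa, Etfdh or Dgat1 were left out. Same-numbered samples are not stated to share an animal or a batch.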

Additional observations from a re-analysis of the deposited data

Results flagged for a closer look

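In 5 of the 82 groups of 4 libraries checked (41 genes in 2 treatments), 1 library lay far from the other 3, past Dixon's 95% critical value. Chance gives this in about 1 in 20 groups. Hadh had 311.8 normalized counts in ethanol 2, against 403 to 419 in the other ethanol libraries. Hilpda had 146.4 in ethanol 2, against 89.1 to 93.6 in the others. Eci1 had 387.9 in saline 2, against 364 to 367 in the other saline libraries. Acot7 had 32.36 in saline 1, against 55.0 to 58.1 in the others. Mgll had 1093.0 in saline 1, against 1246 to 1272 in the others. The causes were not tested.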

How the results depend on the processing

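Under 18 alternatives (pseudocounts of 0.5 and 5, no filter, a mean of at least 50, quantile normalization, the set of samples 1 and 2 or 3 and 4 or the library-name number as a covariate, a block for sample number, edgeR, DESeq2 and leaving out each library) 0 genes were called, and the median log2 fold change of the 40 genes lay between -0.027 and 0.049. Of 718 values for these genes, 657 kept their sign and 61 turned it, none past the threshold, and the cause was not tested. The log2 fold change became -0.11 for Acaca, -0.028 for Cpt1a, 0.0023 for Echs1, 0.027 for Acaa2 and 0.0006 for Decr1 with the library-name number, -0.036 for Acsl3, 0.0021 for Eci1, 0.004 for Decr1 and -0.35 for Dgat2 in edgeR, and -0.0046 for Acaca, -0.042 for Acsl3 and -0.36 for Dgat2 in DESeq2. Leaving out single libraries gave ranges of -0.21 to 0.15 for Acaca, -0.29 to 0.51 for Scd1, -0.26 to 0.18 for Acsl3, -0.14 to 0.30 for Cpt1a, -0.14 to 0.045 for Acadl, -0.034 to 0.13 for Acadm, -0.10 to 0.056 for Echs1, -0.14 to 0.041 for Acaa2, -0.40 to 0.79 for Elovl6, -0.18 to 0.0084 for Hadhb, -0.20 to 0.12 for Decr1, -0.079 to 0.0085 for Elovl1, -0.045 to 0.062 for Eci1, -0.079 to 0.29 for Acot7, -0.036 to 0.16 for Acsl1, -0.026 to 0.069 for Acsl5, -0.033 to 0.065 for Etfdh, -0.07 to 0.024 for Mgll, -0.73 to 0.98 for Dgat2 and -0.25 to 0.041 for Cpt2. The other 20 genes kept their sign under all alternatives. Correlations past adjustment numbered 1, against 2 on deviations from treatment means, and 0 on deviations from set means. Without the 2 farthest libraries the count was 0, but 720 pairings leave too few p-values for a pair to pass over 780, so that count says nothing about the pair that passed.

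With the sample number as a block, the replicate block gave a median of 0.015 for these genes and 0 calls, and 645 genes had an unadjusted p under 0.05, against 524 without it. At that limit the main limma fit had 245 genes higher and 279 lower in ethanol. With the set of samples 1 and 2 or 3 and 4 as a covariate these were 309 and 373. With the library-name number they were 331 and 439. Deviations of same-numbered samples correlated at 0.028, 0.064, 0.080 and 0.014 for numbers 1 to 4, and ethanol 1 correlated best with saline 2 (0.137), so the numbers were not taken to pair the samples. Between ethanol and saline libraries of the same set all such correlations were positive. Across the sets all were negative, from -0.105 to -0.023. Depth limits Acacb, Elovl6 and Dgat2, with means of 1.89, 14.1 and 18.1 normalized counts.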
